A study of Ovis aries with 95 samples.

Results

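Gene expression of the ovine fetal brainstem was compared between 120 and 130 d of gestation, on 4 arrays of each age. These 8 arrays were chosen by their labels, out of 95 in the series, and all probes for genes were compared. Each array was hybridized with Cy3-labeled cRNA of the brainstem of 1 animal, so that a value is a level in that animal on the log2 scale and not a ratio. No treatment is given for either age, and the ewes showed no sign of labor. The labels give no breed, genotype or sex. Each age included a pair of twins that the labels do not mark, so that all arrays were taken as independent. The brainstem was dissected after the hypothalamus and the hippocampi, and no separation of its nuclei or cell types is described. In such tissue fewer cells of a type and less RNA per cell cannot be told apart. The comparison asks which genes change in the brainstem over these days of late gestation.

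The brainstem holds the circuits for breathing, heart rate, blood pressure and swallowing, which the fetus practices before it needs them at birth. In the last part of gestation its neurons have been born, oligodendrocytes wrap the long tracts with myelin, astrocytes mature around the synapses, and fewer cells divide. In sheep, cortisol in fetal plasma climbs toward term and drives the maturation of many organs.

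The label was checked against markers of the region. HOXA5, a homeobox gene of the hindbrain and spinal cord, had a median level of 9.56 (range 9.02 to 9.89) on the 8 brainstem arrays, and it was well above background on 0 of the 8 arrays of the same ages in each of cortex, hippocampus and hypothalamus. HOXA4, another homeobox gene of that kind, was well above background on 8 of 8 brainstem arrays, on 1 of 8 in cortex, on 1 of 8 in hippocampus and on 4 of 8 in hypothalamus. Of 7 peptide genes listed for hypothalamus and forebrain, GNRH1 was well above background on 0 of 8 brainstem arrays, AGRP and GHRH on 1, PMCH on 7, and NPY, OXT and POMC on 8, while all 7 were so on 8 of 8 in hypothalamus. The median level of OXT was 8.59 in brainstem, 7.68 in cortex and 10.30 in hypothalamus, and that of POMC was 9.98, 9.34 and 10.60. Not every gene listed for brainstem marked it. The median level of the noradrenaline transporter SLC6A2 was 6.88 in brainstem, 6.80 in cortex, 6.98 in hippocampus and 6.94 in hypothalamus. TAC1 was at 11.73 in brainstem but at 12.27 in hypothalamus, and GATA3 was at 9.07 and 8.94. NKX6.1 and SLC6A4, also listed, had their highest median in brainstem, at 10.29 and 6.86.

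Of the gene spots, 80.8% ± 3.14 (SD, n = 4) were well above background at 120 d and 81.4% ± 3.07 (n = 4) at 130 d (p = 0.686, two-sided exact permutation test, which can give no p below 0.0286). One animal stood apart. In replicate 3 of 120 d, genes induced by interferon and genes of antigen presentation were far above the other 7 arrays, and the results that it touches are given with and without it. The 2 ages shared 3 slides in the same way, with 1, 2 and 1 arrays of each age on slides 1, 2 and 3. All 24 brainstem arrays entered the fit, which takes its estimate of spread from them. One of these, newborn replicate 4, had a dim area. In 6 of 32 areas of that array the median probe was more than 0.5 below the other newborn arrays, with the lowest at -1.22, and 0 such areas were found on any array of 120 or 130 d.

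Of 12771 genes tested, 0 passed at an adjusted p under 0.05 (0% in either direction), and the lowest adjusted p was 0.388 (limma). At an unadjusted p under 0.05 there were 376 genes, or 2.94%, with 203 higher (1.59%) and 173 lower (1.35%) at 130 d. Leaving the newborn array with the dim area out of the fit narrowed the spread, and the count became 690 (5.4%), with the lowest adjusted p at 0.0529. With the 8 arrays alone it was 832 (6.51%). In both of these fits 0 genes passed. Of the fits that left out 1 of the 8 arrays, that without replicate 2 of 120 d had 1 gene past the threshold, EE834438, at -1.76 (adjusted p = 4.59e-05), and the other 7 had 0. The arrays of the 2 ages did not overlap for 482 genes (3.77%), of which 249 were higher (1.95%) and 233 lower (1.82%) at 130 d.

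The differences were small as well. The median size of the change was 0.07 on the log2 scale, with a median standard error of 0.15. For 94% of genes the 95% interval of the change lay within 1, which is a doubling or halving, and for 66.7% within 0.5. Changes above 1 were seen in 24 genes (0.188%). The step before it and the step after it showed more. From 100 to 120 d, which are 20 d apart, the median size was 0.12, 117 genes differed by more than 1, and 429 genes passed (3.36%), 219 up and 210 down. From 130 to 145 d, 15 d apart, these values were 0.13, 77 genes and 162 genes (1.27%), 64 up and 98 down. In cortex over the same 10 d, the median size was 0.11, 47 genes differed by more than 1, and 161 genes passed (1.25%), 99 up and 62 down. These counts depended on single arrays and on the fit. On leaving out 1 array, 201 (without replicate 2 of 120 d) to 306 genes passed from 100 to 120 d, and 56 (without replicate 1 of 130 d) to 121 from 130 to 145 d, while without newborn replicate 4 there were 1008 and 783. In cortex 10 (without replicate 2 of 130 d) to 905 (without replicate 4 of 120 d) passed on leaving out 1 array, and 46 with the processed signal. With only the arrays of the ages compared, 0 genes passed in cortex, as in brainstem. The steps of the brainstem share the arrays of 120 or 130 d and differ in length, and the difference in the number of genes between steps was not tested.

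**Figure D1:**
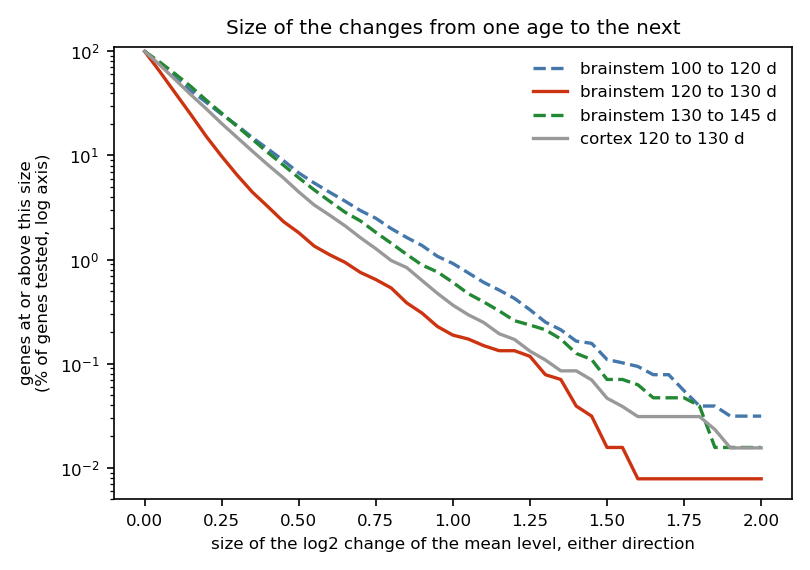
Share of genes (y axis, log scale, percent of genes tested) whose mean log2 level differed by at least the size on the x axis, for 3 steps in brainstem and for cortex from 120 to 130 d, with 4 arrays at each age. The curve of brainstem from 120 to 130 d lies below the other 3 from a size of 0.05 to 1.5, and at a size of 1 it stands at 0.188% of genes.

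Few of the probes have a gene name. Of the 15008 probes, 1562 were given a symbol, and 889 genes with a symbol were tested. Most of the remaining features are known by the accession of a cDNA clone, and some by the name of the probe alone. They were not matched to a transcript here. The pair with the lowest p among those higher at 130 d, and the pair among those lower, each without overlap of the ages, are printed here 5′ to 3′ so that they can be matched to a transcript. Where in the transcript a probe lies is not given, and the genome build of the files is not stated, so no coordinates are given.
EE856399: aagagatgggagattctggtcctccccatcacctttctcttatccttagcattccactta
EE771622: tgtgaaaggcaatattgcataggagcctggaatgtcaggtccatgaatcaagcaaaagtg
EE849442: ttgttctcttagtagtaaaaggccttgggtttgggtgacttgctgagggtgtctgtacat
EE827122: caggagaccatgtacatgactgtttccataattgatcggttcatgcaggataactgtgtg

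The level of EE856399 on the 120 d arrays was 9.38, 8.82, 8.41 and 8.83, and on the 130 d arrays 10.85, 9.55, 10.68 and 9.87. The difference was 1.37 (SE 0.27, adjusted p = 0.388, limma). It was part of a course over all 6 ages, from 7.45 ± 0.04 (SD, n = 4) at 80 d to 11.04 ± 0.47 in the newborn lamb. In cortex the change of EE856399 from 120 to 130 d was 0.02, and the difference between the regions, 1.35, had an adjusted p of 0.279. EE849442 ran the other way. Its mean was 11.20 ± 0.19 at 120 d and 10.37 ± 0.19 at 130 d, a difference of -0.82 (SE 0.18), within a course from 11.96 at 80 d to 9.47 in the newborn. In cortex its change was also -0.82. EE827122 differed by -0.55 (SE 0.12) and EE771622 by 0.84 (SE 0.18), and for these 3 features the adjusted p was also 0.388. The mean of EE771622 did not climb steadily with age. It was 10.27 at 100 d, 9.22 at 120 d, 10.06 at 130 d and 9.57 in the newborn. EE834438, which passed without replicate 2 of 120 d and whose ages overlap, differed by -1.33 (SE 0.28, adjusted p = 0.388) with all 8 arrays.

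Among the named genes that were higher at 130 d, EP4d had the largest difference. EP4d is the name in the files of a partial ovine mRNA of the EP4 receptor, through which prostaglandin E2 raises cyclic AMP. Its levels were 6.97, 7.82, 7.02 and 7.86 at 120 d and 9.06, 8.55, 9.26 and 8.27 at 130 d. The ages did not overlap, though the spread within each age was wide. The difference was 1.37 (SE 0.32, 95% interval 0.69 to 2.04, 2.58-fold), with an adjusted p of 0.531 (limma). Within slides 1, 2 and 3 it was 2.09, 1.48 and 0.41. The 2 probes behind it share 53 of 60 bases, in capitals, and are thus no independent measures of each other.
EP4d first probe: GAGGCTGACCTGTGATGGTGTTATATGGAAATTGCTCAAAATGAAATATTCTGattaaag
EP4d second probe: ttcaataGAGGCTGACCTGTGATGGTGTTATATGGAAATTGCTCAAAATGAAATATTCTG
PTGER4 first probe: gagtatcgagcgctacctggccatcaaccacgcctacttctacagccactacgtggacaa
The probes under the other names of the EP4 receptor were dim, with means of 6.88 and 6.91 for PTGER4 and a mean of 6.89 at 130 d for EP4a, another such mRNA. Signals well above background began at 6.48 (median of the arrays), and changes are narrowed near that level. PTGER4 differed by 0.03 (SE 0.09) and EP4a by -0.11 (SE 0.11). PTGER3, the EP3 receptor of the same ligand, had means of 8.03 and 8.01 (difference -0.02, SE 0.17). Over the 6 ages the mean of EP4d was 7.07 at 80 d, 8.45 at 145 d and 9.62 in the newborn. In cortex EP4d differed by 0.09 between these ages, and the difference between the regions was 1.28 (SE 0.35, adjusted p = 0.445).

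GNG11, a gamma subunit of G proteins, had levels of 12.65, 12.66, 12.51 and 12.32 at 120 d and of 13.29, 13.02, 13.18 and 13.43 at 130 d. The groups were tight and apart by 0.69 (SE 0.19, adjusted p = 0.753, limma), or 1.62-fold. ITGB5, an integrin beta subunit through which cells hold to vitronectin, had levels of 9.72, 9.46, 9.40 and 9.14 at 120 d and of 10.36, 9.86, 10.06 and 9.90 at 130 d. The difference was 0.62 (SE 0.17, adjusted p = 0.753). Both had a level at 120 d close to that at 80 d, 12.42 for GNG11 and 9.32 for ITGB5.

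The other 5 had smaller differences, from 0.33 to 0.37, and an adjusted p of 1. SCD5, a desaturase that makes monounsaturated fatty acids, went from 15.25 ± 0.20 to 15.59 ± 0.11. It had risen by 0.67 from 100 to 120 d (adjusted p = 0.0106), and it stood at 15.55 at 145 d. CD81, a tetraspanin, went from 13.95 ± 0.18 to 14.28 ± 0.09. ST3GAL4, which adds sialic acid to glycoproteins and glycolipids, went from 10.40 ± 0.10 to 10.73 ± 0.11, while its change in cortex was -0.47 (difference between regions 0.80, SE 0.22, adjusted p = 0.445). PON2, an antioxidant lactonase of cell membranes, differed by 0.33 (SE 0.13). PSAP is the precursor of the saposins, which lysosomes need to break down sphingolipids. It went from 13.43 ± 0.08 to 13.79 ± 0.19 (difference 0.37, SE 0.15). The mean of PSAP was 13.85 at 80 d, and at 145 d it was down to 13.25. Probes for prosaposin under the name SGP-1 had means of 6.80 and 6.75, near background as the EP4 probes above, and they bear little on PSAP.

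**Figure D2:**
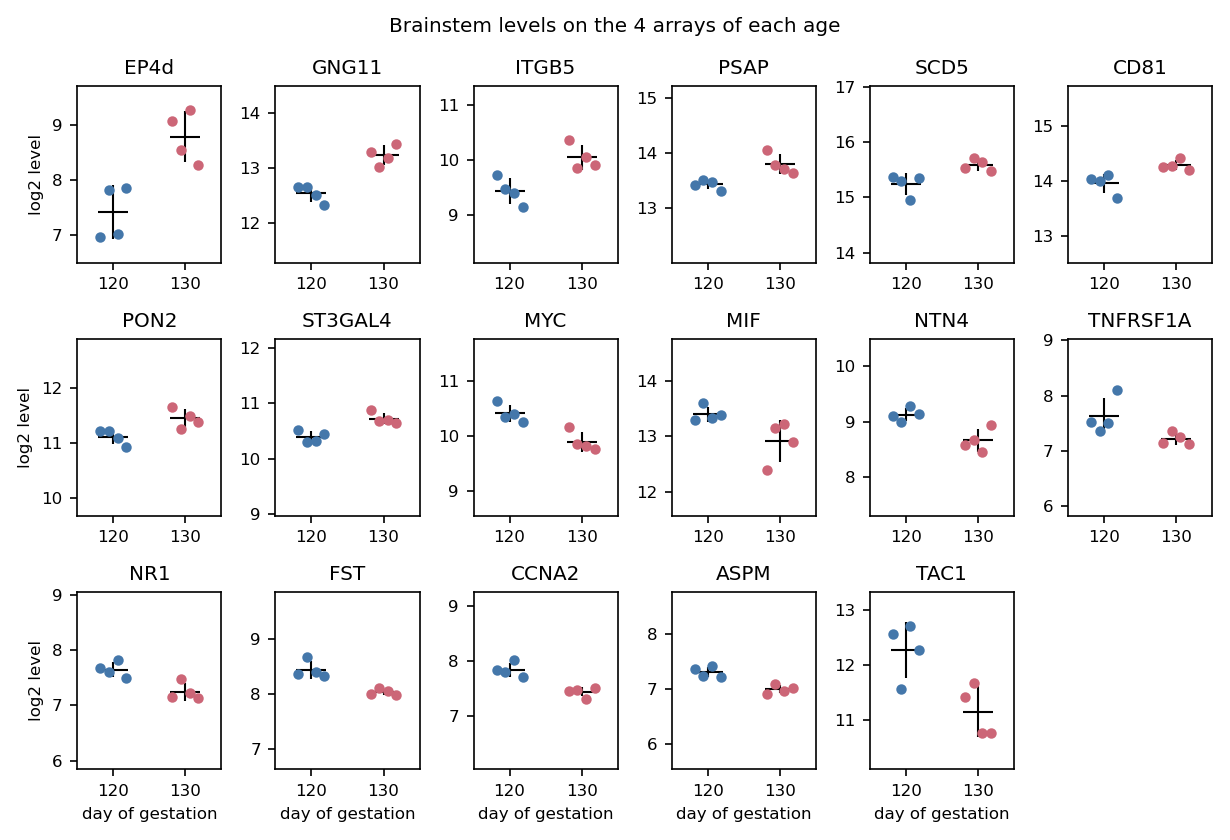
Log2 level on each of the 4 arrays at 120 d (blue) and at 130 d (red) for the 8 genes with the largest differences in each direction and for TAC1. Points are arrays, bars the mean and SD, and each panel spans 3.2 log2 units around its own mean. Apart from TAC1, the genes were chosen for groups that do not overlap, and none passed the adjusted threshold.

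TAC1 had the lowest p of the genes named here with a symbol. It encodes the precursor of substance P and neurokinin A, which act on the neurons of the respiratory and pain pathways of the brainstem. Its levels were 12.56, 11.57, 12.70 and 12.27 at 120 d and 11.41, 11.68, 10.78 and 10.76 at 130 d. Replicate 2 of 120 d was below replicate 2 of 130 d, and the groups overlap there. The difference was -1.12 (SE 0.26, 95% interval -1.66 to -0.57, adjusted p = 0.531, limma), to 0.461 of the level at 120 d. Its probes gave -1.10 and -1.13, and whether they share bases was not checked. Before and after it the means moved little, with changes of -0.18 from 100 to 120 d and of 0.21 from 130 to 145 d. TAC1 in cortex differed by -0.25 (SE 0.58).

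MYC, a transcription factor of growth and division, had levels of 10.64, 10.35, 10.40 and 10.26 at 120 d and of 10.16, 9.86, 9.82 and 9.76 at 130 d. All 130 d arrays were below all 120 d arrays, with a difference of -0.51 (SE 0.12, adjusted p = 0.565, limma). This was a middle stretch of a long decline. MYC fell from 100 to 120 d by 0.58 (adjusted p = 0.0106), and its means were 11.39 at 80 d and 9.61 in the newborn. In cortex MYC fell over the same days by 0.69 (adjusted p = 0.0305), and the difference between regions was 0.18 (SE 0.20).

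The remaining genes with lower levels at 130 d were of several kinds, each with an adjusted p of 1. MIF, a cytokine, went from 13.40 ± 0.14 to 12.92 ± 0.38, with the lowest array of 130 d at 12.39 and the next at 12.90. NTN4, a netrin of the basement membrane, went from 9.13 ± 0.12 to 8.66 ± 0.21. FST, which binds and blocks activin, went from 8.44 ± 0.16 to 8.04 ± 0.06. TNFRSF1A, a receptor of tumor necrosis factor, went from 7.62 ± 0.33 to 7.22 ± 0.11, with 1 high array (8.10) at 120 d, and the nearest arrays of the ages both round to 7.37. On slides 1, 2 and 3 the difference of TNFRSF1A was -0.39, -0.13 and -0.99.

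**Figure D3:**
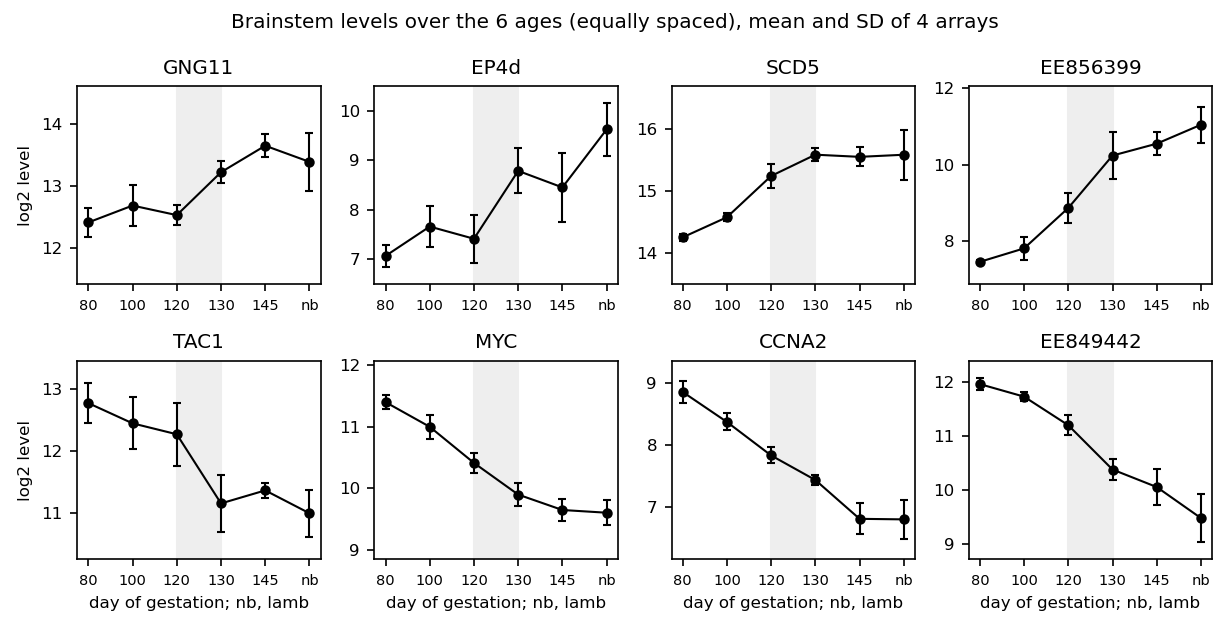
Mean log2 level and SD of 4 arrays in brainstem at 80, 100, 120, 130 and 145 d of gestation and in newborn lambs (nb), with the ages equally spaced on the x axis and the step from 120 to 130 d shaded. MYC, CCNA2 and EE849442 decline and EE856399 climbs over most of the ages, while the means of TAC1, GNG11 and EP4d differ most between neighboring ages before birth in the shaded step. TAC1, GNG11 and EP4d were named for their difference in that step, which favors this, and none of them passed the adjusted threshold there.

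The genes of known pathways and cell types were next described list by list. Each list is set beside all genes tested, for which the median change was 0.00 and 51.5% were higher at 130 d.

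The cell cycle list had the most genes at an unadjusted p under 0.05. Of its 10 genes tested, 9 were lower at 130 d, the median change was -0.17, and 4 were lower at an unadjusted p under 0.05 (1.35% of all genes), with 0 at the adjusted threshold. These were CCNA2, the cyclin of S phase and early mitosis, CDK1, its partner kinase, TYMS, which makes thymidylate for DNA, and LMNB1, of the nuclear lamina. CCNA2 had levels of 7.84, 7.79, 8.01 and 7.70 at 120 d and of 7.45, 7.48, 7.32 and 7.51 at 130 d, with no overlap (difference -0.40, SE 0.14, adjusted p = 1, limma). TYMS differed by -0.47 (SE 0.19), LMNB1 by -0.35 (SE 0.14) and CDK1 by -0.25 (SE 0.12), each with overlap. ASPM, which organizes the mitotic spindle of dividing progenitors and is in no list, differed by -0.31 (SE 0.10). CCND2 alone was higher, by 0.35 (SE 0.30). Without replicate 3 of 120 d, 9 of the 10 were still lower and the median was -0.18, but 1 gene was left at an unadjusted p under 0.05, while without the newborn array with the dim area there were 5. CCNA2 fell from 100 to 120 d by 0.54 (adjusted p = 0.0371) and from 130 to 145 d by 0.63 (adjusted p = 0.0304), so that the step between lies in a decline from 8.86 at 80 d to 6.81 at 145 d.

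Of 29 oligodendrocyte and myelin genes listed, 5 had a named probe. All 5 were higher at 130 d, with a median of 0.27, and 0 had an unadjusted p under 0.05. CX32, a connexin of the myelin sheath, had levels of 10.45, 10.51, 10.19 and 10.51 at 120 d and of 11.39, 10.54, 11.20 and 10.57 at 130 d. The CX32 arrays did not overlap but came close, at 10.51 and 10.54 (difference 0.51, SE 0.26, adjusted p = 1, limma). CRYAB, a small heat shock protein of oligodendrocytes, differed by 0.42 (SE 0.21, adjusted p = 1), and TF, which carries iron, by 0.27 (SE 0.22). Much larger changes preceded these. From 100 to 120 d CRYAB rose by 1.49 (adjusted p = 0.000436), TF by 1.45 (adjusted p = 0.000815) and CX32 by 1.23 (adjusted p = 0.0106). From 130 to 145 d none of the 3 passed, with changes of 0.36, 0.03 and -0.48.

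Of the 9 names in the astrocyte list 7 were higher at 130 d, with a median of 0.17 and 0 at an unadjusted p under 0.05. EAAT2, the main glutamate transporter of astrocytes, had levels of 7.55, 7.47, 7.42 and 7.38 and then of 7.71, 7.64, 7.58 and 7.56, a difference of 0.17 (SE 0.10, adjusted p = 1, limma). Its groups were narrow and did not overlap. Under the other name of the same transporter, GLT-1, the means were 6.72 and 6.75, near background. CONNEXIN 43 was brighter, and its ages did not overlap either, with means of 12.95 and 13.26 (difference 0.31, SE 0.32). Its unadjusted p was 0.0352 (limma) without the newborn array with the dim area. Under the name GJA1 the difference was 0.17 (SE 0.16). GFAP differed by 0.24 (SE 0.27). EAAT2 rose later, by 0.82 from 130 to 145 d (adjusted p = 0.000484). VIM, the filament protein of immature glia, differed by -0.23 (SE 0.16), and the water channel AQP4 by -0.33 (SE 0.32).

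Of the 8 names in the list of neurons and transmission 5 were lower, with a median of -0.16. At an unadjusted p under 0.05, 2 were lower (1.35% of all genes), both subunits of glutamate receptors. Without replicate 3 of 120 d, 1 gene was left at that p. NR1, the subunit that every NMDA receptor needs, went from 7.65 ± 0.14 to 7.25 ± 0.16 without overlap (difference -0.40, SE 0.17, adjusted p = 1, limma). The probe for the same subunit under the name GRIN1 differed by -0.17 (SE 0.20). GRIA2, which limits calcium entry through AMPA receptors, went from 10.48 ± 0.15 to 10.13 ± 0.23 (difference -0.36, SE 0.13, adjusted p = 1), and from 130 to 145 d it rose by 0.59 (adjusted p = 0.0304). NEUROD1, which drives the differentiation of young neurons, was at 12.72 ± 1.20 at 80 d and at 8.96 ± 0.72 and 8.47 ± 0.19 at 120 and 130 d.

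**Figure D4:**
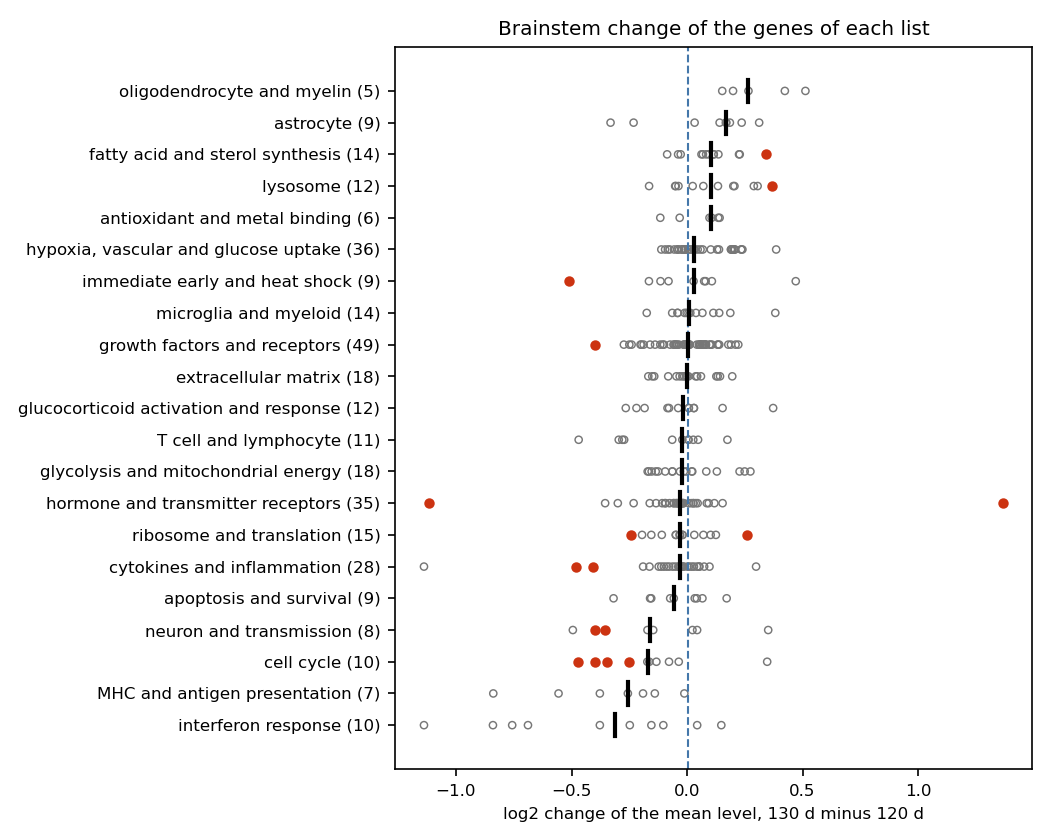
Log2 change from 120 to 130 d in brainstem of the genes of 21 lists, with the number tested in parentheses. Circles are genes, filled red where the unadjusted p was under 0.05, black bars are list medians and the dashed line is the median of all genes. Medians run from -0.31 in the interferon list to 0.27 in the oligodendrocyte list, and most filled circles of one list, 4, are in the cell cycle list.

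The 2 lists with the lowest medians followed 1 animal. In the interferon response list, 8 of 10 genes were lower at 130 d, with a median of -0.31, and in the antigen presentation list 7 of 7, with a median of -0.26, and 0 genes of either had an unadjusted p under 0.05. CXCL10, a chemokine induced by interferon, had levels of 8.37, 8.39, 12.48 and 8.35 at 120 d and of 7.60, 8.57, 8.41 and 8.44 at 130 d. ISG15, a ubiquitin-like protein, was at 12.49 in replicate 3 of 120 d and between 10.14 and 10.83 in the other 3 arrays of that age. MX1, an antiviral GTPase, was at 12.23 in that array and between 10.02 and 10.36 in the other 3, and the class I antigen OVAR was at 15.52 and between 13.08 and 13.58. The proteasome subunit PSMB8 was at 9.53 there and between 7.66 and 7.69 in the other 3. Of the 10 and 7 genes, PSMB8 is in both lists. The red cell list also had its highest array there, at a median deviation of 0.94, and its part in these results was not tested. Without this array the median change was -0.0035 in the interferon list, with 5 of 10 higher, and 0.10 in the antigen presentation list, with 6 of 7 higher. MX2 was the one member whose ages did not overlap. It was at 9.61, 8.94, 10.43 and 9.23 at 120 d and at 8.74, 8.88, 8.65 and 8.57 at 130 d (difference -0.84, SE 0.46, adjusted p = 1, limma).

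**Figure D5:**
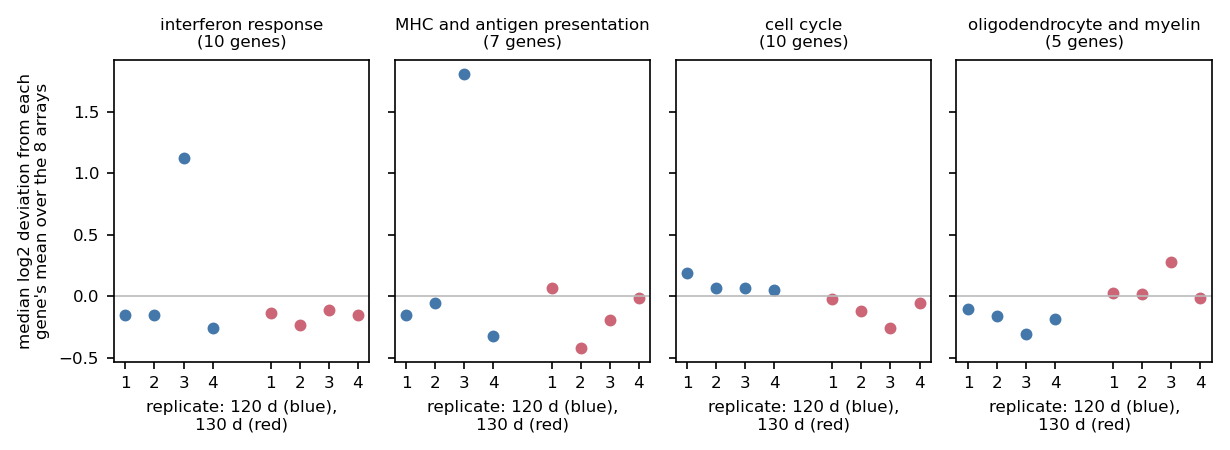
Median log2 deviation of the genes of 4 lists from each gene's mean over the 8 arrays, by replicate, at 120 d (blue) and 130 d (red). Replicate 3 of 120 d stands at 1.12 in the interferon list and at 1.81 in the antigen presentation list, while in the cell cycle list it is at 0.07, within the 0.06 to 0.19 of its age.

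In that array the median deviation was 0.15 in the microglia list and 0.16 in the T cell list, the highest of the 8 arrays in both. The microglia and myeloid list had a median change of 0.01 over 14 genes, and the T cell and lymphocyte list one of -0.02 over 11, with 0 genes of either at an unadjusted p under 0.05. Of the immune markers that the study followed in brainstem, only CD9 and CD5 are given here. No value is given here for the others, CD34, CD109 and CD44, for which the study shows array levels in brainstem. CD9, a tetraspanin that is also in the oligodendrocyte list, had levels of 13.51, 13.16, 13.50 and 13.00 at 120 d and of 13.42, 13.54, 13.63 and 13.37 at 130 d. The difference for CD9 was 0.20 (SE 0.26, 95% interval -0.34 to 0.74, adjusted p = 1, limma). CD5, a marker of T cells, had levels of 7.20, 7.54, 7.93 and 7.55 and then of 7.22, 7.36, 8.03 and 7.35 (difference -0.06, SE 0.19, 95% interval -0.45 to 0.32). In the cytokine and inflammation list, 18 of 28 genes were lower and 2 were so at an unadjusted p under 0.05 (1.35% of all genes), which were MIF and TNFRSF1A.

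For genes of glucocorticoid activation and response the differences went both ways. Of 12 genes 6 were higher and 6 lower, with a median of -0.02 and 0 at an unadjusted p under 0.05. VDUP1, a target of glucocorticoids and of glucose, went from 11.31 ± 0.23 to 11.68 ± 0.35 (difference 0.37, SE 0.23), on the way to 13.17 in the newborn. HSD11B1, the enzyme that regenerates cortisol in the cell, went from 9.14 ± 0.20 to 8.88 ± 0.12 (difference -0.27, SE 0.22), and it was at 7.51 in the newborn. The glucocorticoid receptor gene NR3C1 differed by -0.08 (SE 0.12). CYP11A1, which starts steroid synthesis, was well above background on 1 array of each age. Beside MYC, the immediate early and heat shock list of 9 genes held 0 others at an unadjusted p under 0.05, with FOS at -0.08 (SE 0.25).

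The hypoxia, vascular and glucose uptake list held small differences. Of 36 genes 22 were higher, the median was 0.03, the range was -0.11 to 0.39, and 0 had an unadjusted p under 0.05. Within it HIF1A differed by 0.06 (SE 0.12), VEGFA by 0.07 (SE 0.22) and the blood-brain barrier glucose transporter GLUT-1 by 0.19 (SE 0.17). The 18 genes of glycolysis and mitochondrial energy had a median of -0.02 and a range of -0.17 to 0.27, and the 18 of the extracellular matrix had one of -0.0019 and a range of -0.17 to 0.20. In the fatty acid and sterol list 11 of 14 genes were higher (median 0.10), and SCD5 was the one at an unadjusted p under 0.05. In the lysosome list 8 of 12 were higher (median 0.10), and PSAP was the one. The 49 growth factors and their receptors had a median of 0.00, with FST alone under that p. The ribosome list held 1 gene in each direction, RPL10 at -0.24 (SE 0.10) and RPL4 at 0.26 (SE 0.12), and a median of -0.03 over 15. In the list of hormone and transmitter receptors 24 of 35 genes were lower (median -0.03), with EP4d and TAC1 at an unadjusted p under 0.05. The lists of apoptosis (9 genes, median -0.06) and of antioxidants (6 genes, median 0.10) held 0 such genes. Without the newborn array with the dim area, 4 growth factor genes, 2 lysosome genes and 1 apoptosis gene had such a p. The counts of the other lists of this paragraph stayed the same.

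For markers of other tissues, none of the genes tested for choroid plexus (4), red cells (3), pituitary (4), plasma proteins (6) and muscle (4) had an unadjusted p under 0.05. Blood varied between animals, with the summed linear level of the red cell genes between 8879 and 39230 at 120 d and between 7509 and 28450 at 130 d. The choroid plexus sum, over the 3 genes measured on all arrays, ran from 18270 to 29410 and from 11600 to 43110, and TTR, the fourth, differed by 0.58 (SE 0.98). For the genes listed for brainstem, the median change was -0.12 over 7. TAC1, which was brighter in hypothalamus, was the one at an unadjusted p under 0.05.

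The change in brainstem was set against that in cortex over the same days, in 1 fit over the 48 arrays of both regions. Of 13133 genes, 1 differed at an adjusted p under 0.05 (0.00761%), and 552 at an unadjusted p under 0.05 (4.2%, limma). That gene was ADCYAP1, which encodes the neuropeptide PACAP, known in brainstem for its part in the control of breathing. In brainstem ADCYAP1 was at 12.72, 12.46, 12.68 and 12.36 at 120 d and at 12.11, 12.54, 12.59 and 12.33 at 130 d. In cortex it was at 10.94, 9.80, 9.21 and 10.29 at 120 d and at 11.95, 12.17, 11.48 and 12.08 at 130 d. Thus the groups overlap in brainstem and are apart in cortex. The change in brainstem was -0.16 (SE 0.18), that in cortex was 1.86 (SE 0.28, adjusted p = 0.00509), and the difference was -2.02 (SE 0.35, adjusted p = 0.0114). The adjusted p was 0.0595 (limma) without brainstem replicate 1 of 130 d and 0.0607 with the brightest probe alone. With the 16 arrays of these ages alone it was 0.123. Fits without single cortex arrays were not run for this difference.

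Other genes with a low p for this difference did not pass. YBX1, a protein of RNA and DNA binding, differed by -0.11 (SE 0.22) in brainstem and fell in cortex by 1.00 (adjusted p = 0.00183), a difference of 0.89 (SE 0.26, adjusted p = 0.524). COL4A3, a collagen of basement membranes, differed by -0.07 in brainstem and fell in cortex by 1.04 (adjusted p = 0.0188), a difference of 0.97 (SE 0.28, adjusted p = 0.515). SST, the precursor of somatostatin, differed by -0.35 (SE 0.25) in brainstem and by 0.98 (SE 0.28) in cortex, a difference of -1.33 (SE 0.39, adjusted p = 0.515). LAT1, an amino acid transporter, differed by -0.20 in brainstem and by 0.38 in cortex, a difference of -0.58 (SE 0.16, adjusted p = 0.502). For YBX1 the level in brainstem fell by 0.84 from 100 to 120 d (adjusted p = 0.0409).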

How the data were processed

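One-colour arrays of the ovine brain were analysed, with groups taken from the sample labels. The authors deposited each array's mean and local background intensity and a processed signal intensity, before normalization between arrays, and a series table of log2 values after background correction, quantile normalization and filtering in limma. Each of that table's 95 columns correlated best with its own array as computed here (slopes over the 8 arrays 0.984 to 0.988). Genome build and background method are not given in the sources used here.

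Here the mean intensity was corrected with normexp (offset 50, limma 3.58.1, R 4.3.3), which narrows changes of dim probes, and quantile normalized over 95 arrays. Spots with an outlier mark were left out, so that some genes lack arrays. A probe was kept when at least 1.1 times the 95th percentile of 77 negative controls on at least 4 brainstem arrays (13309 of 15008 probes). Probes of a gene were averaged. Gene names came from the RefSeq table of ARS-UI_Ramb_v3.0 for 703 probes through the accession, 125 through the gene identifier, 500 through the symbol and 20 through a synonym. The name in the file was kept for 214. Signal over background stands for depth: the lowest log2 signal well above background had a median of 6.48. The number of arrays limits the precision, and no source says that replicates are anything but separate animals of an age, twins included.

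All 24 brainstem arrays were fitted together with age as the factor (lmFit, eBayes), and the contrast of 130 with 120 d was adjusted by Benjamini-Hochberg over all genes. The test was tried on simulated data. The members, gene lists and tests were chosen with earlier results of these data known. Named genes were the 8 with a symbol and the largest difference in each direction at an unadjusted p under 0.05 without overlap, up to 4 of each list by p, CD9 and CD5, and the 4 in each direction with the lowest p for the difference from cortex. Other genes were named after their values were seen. Figures were drawn with matplotlib 3.10.9.

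The tests were repeated with an offset of 16, with the processed signal (each array divided by its 75th percentile), the series table, quantile normalization within region, 2 other filters, other uses of probes, marked spots kept, replicate number or slide as a block, other eBayes settings, fewer arrays, a threshold of 0.01 and leaving out each array. For the difference between regions, the single arrays left out were all of brainstem. The fits without newborn replicate 4, those of the 8 arrays with slide as a block, and the lists without replicate 3 of 120 d were added after seeing the data.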

Additional observations from a re-analysis of the deposited data

Results flagged for a closer look

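Among the 52 named genes, 8 of 104 groups of 4 arrays held 1 array far from the other 3, where the gap divided by the range passed the 95% critical value of Dixon's test. Chance flags about 1 in 20 groups. At 120 d, replicate 3 was the high array for PSMB8 (ratio 0.985, 9.53 against 7.66 to 7.69), MX1 (0.845, 12.23 against 10.02 to 10.36) and CXCL10 (0.99, 12.48 against 8.35 to 8.39). At 120 d, CYP11A1 had 1 high array (0.841, 7.19 against 6.43 to 6.55) and LAT1 1 low array (0.949, 7.36 against 7.67 to 7.69). At 130 d, CXCL10 had 1 low array (0.837, 7.60 against 8.41 to 8.57), and RPL4 (0.902, 14.86 against 14.48 to 14.51) and CD5 (0.833, 8.03 against 7.22 to 7.36) each had 1 high array. ADCYAP1 differed between brainstem and cortex in its change from 120 to 130 d by -2.02 (adjusted p = 0.0114, limma).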

How the results depend on the processing

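From 120 to 130 d in brainstem, 0 genes passed in every setting tried except without replicate 2 of 120 d, with 1 (EE834438), so that leaving out 1 array gave 0 to 1. The count at an unadjusted p under 0.05 lay between 286 (without replicate 1 of 130 d) and 405 (without replicate 2 of 130 d) on leaving out 1 array. It was 416 with no filter, 422 with slide as a block, 832 with the 8 arrays alone, 1143 with these and slide as a block, 690 without newborn replicate 4 and 463 with the processed signal. The replicate numbers were not taken as pairs, since no label gives them a meaning and 1 of the 4 same-numbered pairs did not deviate together (correlations 0.44, 0.24, -0.01 and 0.23). Same-numbered arrays also shared a slide, and 6 of 8 arrays correlated best with their own number. With a replicate block 400 genes had such a p and 0 passed. From 100 to 120 d, 201 (without replicate 2 of 120 d) to 306 genes passed on leaving out 1 array, 145 at an adjusted p under 0.01 and 1008 without newborn replicate 4. From 130 to 145 d these were 56 (without replicate 1 of 130 d) to 121, 35 and 783, with 554 by the processed signal and 527 with only the arrays of those ages. In cortex the count was 10 (without replicate 2 of 130 d) to 905 (without replicate 4 of 120 d) on leaving out 1 array, 46 by the processed signal, 407 with a replicate block, 357 with slide as a block, 0 with only the arrays compared and 7 at an adjusted p under 0.01. For the difference between brainstem and cortex it was 0 (without replicate 1 of 130 d) to 3 on leaving out 1 array, 2 by the processed signal, 0 by the brightest probe, 4 by single probes, 0 with a replicate block, 3 with only the arrays compared, 0 at an adjusted p under 0.01, 5 with age and number as a random block and 5 without newborn replicate 4. For this difference each single array left out was of brainstem, so that its dependence on single cortex arrays was not tested. ADCYAP1 passed in 19 of 23 alternatives, with differences from -2.09 to -1.93 and an adjusted p from 0.00202 to 0.123 (limma). With the replicate block it was 0.0714. The causes were not tested. Of 1194 values of the 52 named genes under alternatives, 1188 kept their direction and 0 passed. On leaving out 1 array the sign turned for MHCII-DRB1 (-1.05 to 0.15), PSMB8 (-0.54 to 0.088) and PSME2 (-0.21 to 0.0028) without replicate 3 of 120 d, for CD5 (-0.24 to 0.062) without that array and, at 0.025, without replicate 1 of 130 d, and for YBX1 (-0.25 to 0.033) without replicate 2 of 130 d. Genes named for ages without overlap keep their direction by that choice. With 4 arrays an age and a median standard error of 0.15, changes well under 1 could not be told from 0 for many genes, and probes near background have narrowed changes.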

Other observations

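A raised level of interferon-induced and antigen presentation genes was present in 1 of the 4 arrays of 120 d in every region, under different replicate numbers. The deviation of the antigen presentation list from each gene's median over the 8 arrays of 120 and 130 d was 2.01 in brainstem (replicate 3), 2.56 in cortex (replicate 2), 2.07 in hippocampus (replicate 2) and 2.09 in hypothalamus (replicate 4), and that of the interferon list in the same arrays was 1.26, 1.82, 0.73 and 1.05. In the other 28 arrays of these ages and regions the antigen presentation list lay between -0.75 and 0.23, and the interferon list between -0.31 and 0.16. The labels do not say whether these 4 arrays are of 1 fetus, and this was not tested.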
